A study of Zea mays with 6 samples.

Results

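The genes described here are those whose transcripts were lowered in all 3 libraries of the apl genotype of maize (Zea mays), and there were 98 of them among the 44303 genes in the table. The members were chosen by these TPM values themselves: a gene was taken if the lowest of its 3 Zheng58 values was at least 2 times the highest of its 3 apl values, each taken as TPM + 1, and if the Zheng58 mean was at least 3 and below 1000 TPM. TPM is a relative transcript abundance, scaled for transcript length and to a common library total. The rule left out a block of 250 consecutive genes in identifier order. Outside that block 15088 genes had a Zheng58 mean in the required range, and the members were 0.65% of these. The ratio alone was met by 118 genes, of which 18 had a Zheng58 mean below 3 TPM, 1 had a mean above the upper limit and 1 lay in the block left out.

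The study compared 3 libraries of the inbred line Zheng58 with 3 libraries of apl in the Zheng58 background, all from second leaves of greenhouse seedlings sampled at 10 days. The labels give apl as the genotype without the locus, the allele or the way it was made, and they state neither how many plants went into a library nor that replicates were separate plants. P-values thus reflect only the variation from library to library, part of which could be technical. The identifiers could not be paired with gene names (0 matched a table of 49888 named maize genes), so the mutated gene, the marker genes of leaf tissue and the functions of the members were not checked here, and members are described by their levels and ranks.

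Zheng58 is a maize inbred that has served as a parent of a widely grown Chinese hybrid. The maize leaf blade is a C4 tissue in which mesophyll and bundle sheath cells divide the steps of carbon fixation between them, around closely spaced veins whose phloem carries sugar away. A leaf sample mixes all of these cells, so a transcript level in it is an average over mesophyll, bundle sheath, vascular and epidermal cells.

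Across all tested genes the apl libraries were not alike. Pearson correlations of log2(TPM + 1) with the Zheng58 libraries ran from 0.950 to 0.955 for apl replicate 2, from 0.887 to 0.896 for replicate 1 and from 0.906 to 0.912 for replicate 3, whereas replicates 1 and 3 correlated at 0.952 with each other and at 0.885 and 0.900 with replicate 2. The number of genes above 0 TPM ran from 26464 to 28391 per library. These are correlations across genes, which are not independent replicates. Because membership needs replicate 2 to be low as well, the list depends on that library more than on any other: without it the same rule gave 379 genes, and without any other library it gave 110 to 140.

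The 98 members together held 4864, 5243 and 4736 TPM in Zheng58 replicates 1, 2 and 3, and 1056, 1307 and 1223 TPM in apl replicates 1, 2 and 3. The group means were 4947 ± 263 TPM and 1195 ± 128 TPM (SD, n = 3 each), which were 0.519% ± 0.029 and 0.127% ± 0.014 of the TPM listed in the table. The sums of the 2 groups did not overlap, which the rule made certain, so the gap is a description and not a test. The members were spread over a wide range of abundance, with Zheng58 means from 3.22 to 555.2 TPM and a median of 13.6 TPM, close to the median of 14.3 TPM over the 15088 genes in range. Their apl means ran from 0 to 198.4 TPM with a median of 2.05 TPM. In leaf tissue sampled whole, fewer cells of a type and less RNA per cell cannot be told apart.

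**Figure D1:**
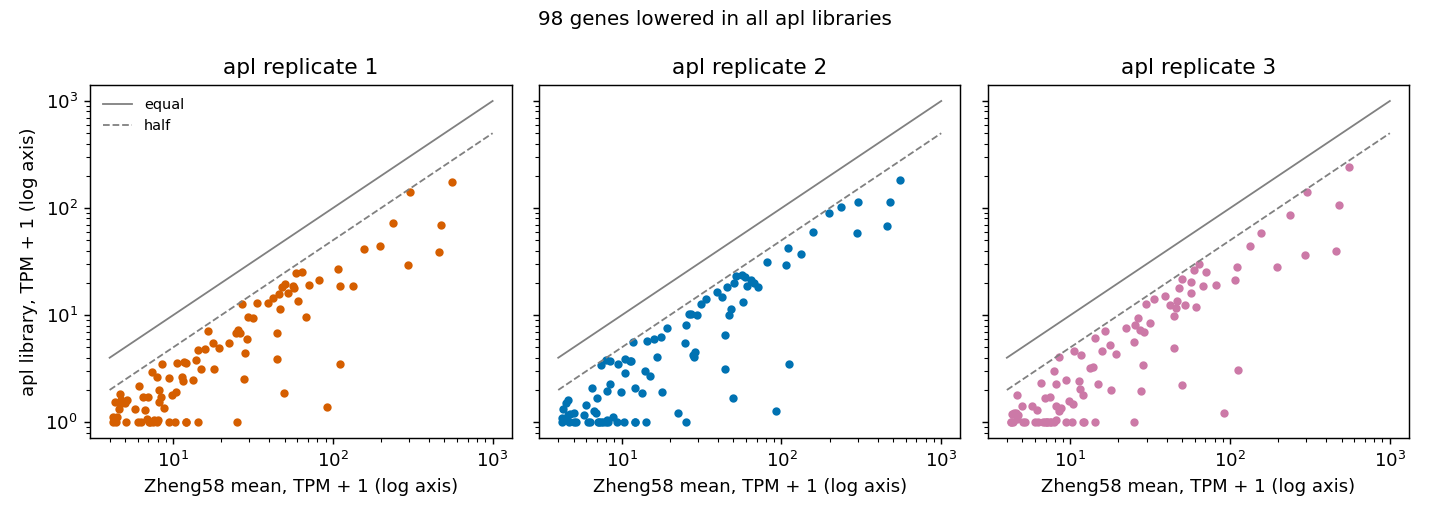
Each panel plots the 98 members in 1 apl library (vertical, TPM + 1, log axis) against their Zheng58 mean (horizontal, TPM + 1, log axis). The solid line marks equal levels and the dashed line a level 2 times lower; every point lies below the solid line, and members along the floor of a panel are listed at 0 in that library.

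The size of the difference varied among the members. The mean of log2(TPM + 1) in apl minus that in Zheng58 had a median of -2.05 over the members, quartiles of -2.53 and -1.62, and a range from -6.15 to -1.17. Over the 20411 genes averaging 1 TPM or more the median difference was 0.04. A difference of -3 or lower was seen for 12 members, one between -3 and -2 for 40, and a smaller one for 46. These log2 values understate the change of genes at low TPM, because the added 1 TPM weighs more there. Without the 13 members listed at 0 in every apl library, whose log2 value is set by the added 1 TPM, the median over the other 85 was -1.94.

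The level kept in apl, as a percentage of the Zheng58 mean, ranged over the members from nearly absent to only reduced. The bounds of 5%, 20% and 35% used for this description were chosen after the values were seen. Besides the 13 members listed at 0 in all 3 apl libraries, 13 kept more than 0 but under 5% of the Zheng58 mean, 29 kept 5 to under 20%, 33 kept 20 to under 35%, and 10 kept 35% or more. The highest mean kept was 43.3%. The Zheng58 means of the classes had medians of 6.95, 5.90, 10.3, 30.5 and 56.8 TPM in that order, so nearly absent transcripts were mostly of low abundance in Zheng58. The rule itself shapes this order, since with the added 1 TPM the highest share of the Zheng58 level that it admits is smaller at low TPM.

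**Figure D2:**
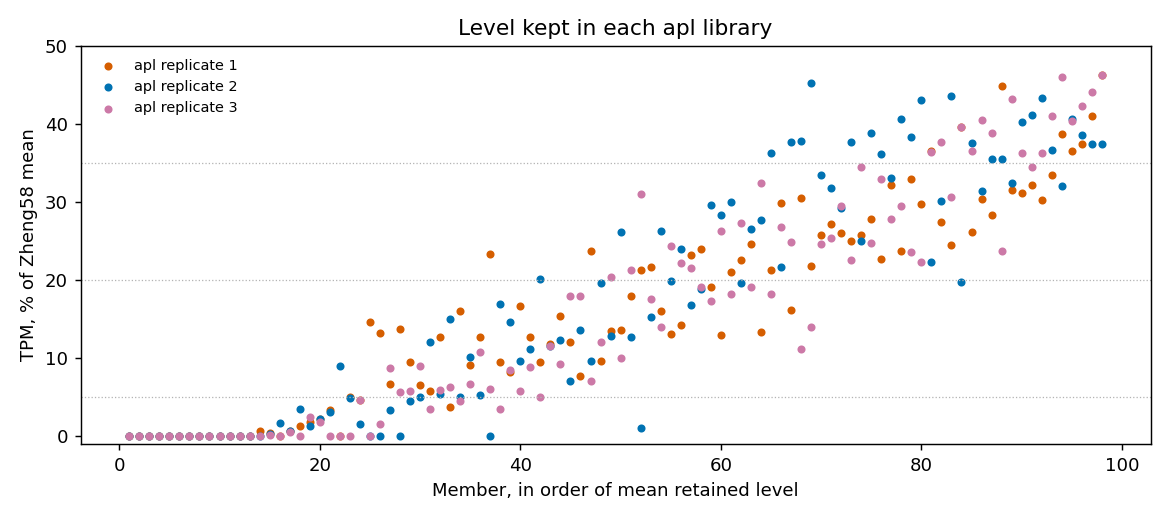
The vertical axis gives the TPM in each apl library as a percentage of the Zheng58 mean, for the 98 members ordered along the horizontal axis by their mean kept level. Colours mark the 3 apl replicates and dotted lines the class bounds of 5%, 20% and 35%; the first 13 members are at 0 in all 3 libraries, and no library kept more than 46.3% for any member.

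Zm00001eb145820 had the widest separation between the groups, with a lowest Zheng58 value 61.7 times its highest apl value on TPM + 1. Its level was 90.5, 84.8 and 98.2 TPM in Zheng58 replicates 1, 2 and 3, and 0.39, 0.28 and 0.22 TPM in apl replicates 1, 2 and 3. The apl mean was 0.325% of the Zheng58 mean, and the 3 apl values lay close together. It was the member with the largest log2 difference, -6.15, while its Zheng58 mean of 91.2 ± 6.75 TPM (SD, n = 3) ranked 13 among the members.

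A few other members combined clear expression in Zheng58 with a trace in apl. The member ranked 2 by separation held 110.1, 114.4 and 106.6 TPM in the Zheng58 libraries and 2.5, 2.53 and 2.09 TPM in the apl libraries, so that 2.15% of the Zheng58 mean remained. The member ranked 4 held 48.1, 48.8 and 49.4 TPM in Zheng58 and 0.87, 0.68 and 1.23 TPM in apl, or 1.9% of the Zheng58 mean. In both, the libraries of a group lay close together, and apl replicate 2 lay close to apl replicates 1 and 3. The other members in the class of under 5% had lower Zheng58 means, and 8 of the 13 in the class were listed at 0 in at least 1 apl library.

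Of the 13 members listed at 0 in every apl library, the most abundant in Zheng58 held 22.8, 28.3 and 21.2 TPM in replicates 1, 2 and 3. The Zheng58 means of the 13 ran from 3.22 to 24.1 TPM. Zheng58 libraries did not always resemble each other for these genes: in 6 of the 13 the highest Zheng58 value was more than 2 times the lowest. How often this held in other genes of like level was not counted. The steadiest held 8.24, 8.37 and 8.58 TPM, and the least steady 6.89, 9.51 and 2.16 TPM. Among the 15088 genes in range, 28 were listed at 0 in all 3 apl libraries, and the 15 that are not members had a Zheng58 library too low for the ratio. Depth is unknown for TPM, and values are listed to 2 decimals. A value of 0 thus does not show that no transcript was assigned, and it gives no upper limit. The mirrored rule, which takes genes raised in all 3 apl libraries by the same ratio and range, gave 95 genes, of which 25 had 0 TPM in every Zheng58 library. Over all genes, 75 were at 0 in every Zheng58 library with an apl mean of at least 3 TPM. The other way, 28 were at 0 in every apl library with a Zheng58 mean of at least 3 TPM.

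At the other end of the abundance range, 12 members had a Zheng58 mean of at least 100 TPM. They were 1.02% of the 1180 genes of that abundance in range, while members were 0.676% of the genes from 3 to below 10 TPM, 0.545% of those from 10 to below 50 and 0.74% of those from 50 to below 100. Kept levels in this class ran from 2.15% to 43.3% with a median of 25.4%, and 0 of the 12 were listed at 0 in all 3 apl libraries. The 5 most abundant members made up 42.2% of the summed Zheng58 mean of the list.

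Zm00001eb003440, the most abundant member, held 596.9, 490.9 and 577.6 TPM in Zheng58 replicates 1, 2 and 3, and 175.3, 180.0 and 239.9 TPM in apl replicates 1, 2 and 3. Its means were 555.2 ± 56.4 TPM in Zheng58 and 198.4 ± 36.0 TPM in apl (SD, n = 3 each), a log2 difference of -1.49, and 35.7% of the Zheng58 mean was kept. It lay near the ratio the rule requires, at 2.04. Its apl replicate 3 was the highest of the apl libraries and replicate 1 the lowest, and each was far below every Zheng58 library.

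Which apl library was highest varied among the next members by abundance. The member ranked 2 by Zheng58 mean held 457.6, 513.5 and 460.0 TPM in Zheng58 and 67.8, 114.2 and 106.1 TPM in apl, keeping 20.1%. The member ranked 3 held 403.2, 609.3 and 363.8 TPM in Zheng58 and 37.8, 67.0 and 39.0 TPM in apl, keeping 10.5%. In both, apl replicate 2 was the highest of the apl libraries. The member ranked 4 was steady in Zheng58 at 301.5, 295.7 and 305.9 TPM, and it kept the largest share of the whole list, 43.3%, with 139.5, 112.8 and 139.2 TPM in apl. Here replicate 2 was instead the lowest.

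**Figure D3:**
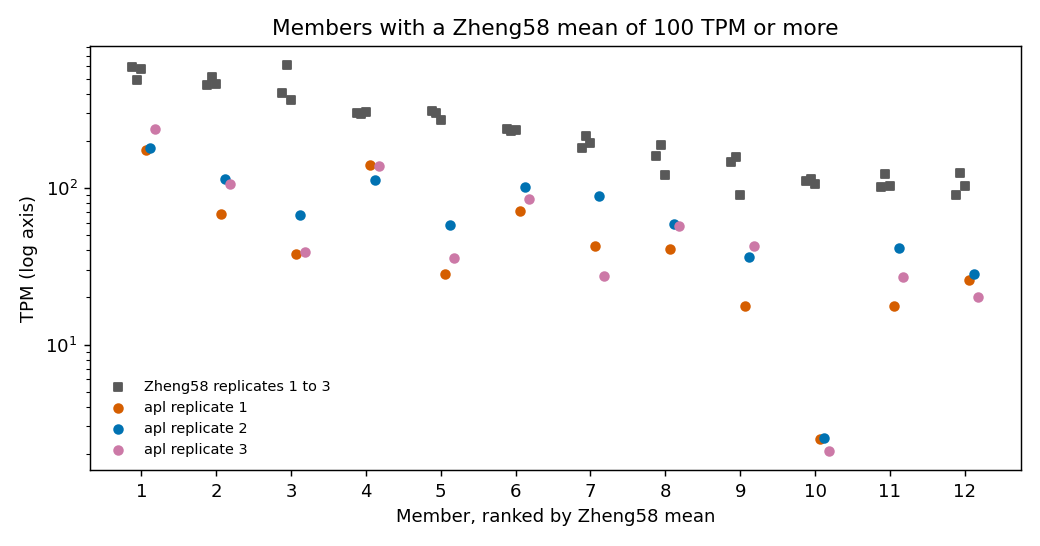
TPM (log axis) in every library for the 12 members with a Zheng58 mean of at least 100 TPM, ranked along the horizontal axis by that mean. Grey squares are the 3 Zheng58 libraries and coloured points the 3 apl libraries; apl replicate 2 is the highest apl library in 9 of the 12, and the member ranked 10 stands apart with apl values from 2.09 to 2.53 TPM.

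Within the list, apl replicate 2 did not lie apart from the other apl libraries as it did across all genes. The median kept level was 15.0% of the Zheng58 mean in apl replicate 1, 16.1% in replicate 2 and 14.0% in replicate 3. Replicate 2 was strictly the highest apl library in 37 members, replicate 1 in 24 and replicate 3 in 21, and 16 members had no single highest library. A relative position of replicate 2 was taken on log2(TPM + 1), with 0 at the Zheng58 mean and 1 at the mean of apl replicates 1 and 3. The 13 members listed at 0 in every apl library are at 1 by construction. Over the other 85 the median position was 0.968, with quartiles of 0.791 and 1.13, and 48 lay below 1 and 37 above. In the 12 members of at least 100 TPM the median was 0.824, with 10 below 1. The rule admits only genes with a low replicate 2, so these positions describe the members and were not tested.

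Members were a minority of the genes lowered in the other apl libraries. With replicate 2 set aside, 379 genes met the rule, and the 98 members were 25.9% of them. In the other 281 genes the median relative position of replicate 2 was 0.141, and in 113 of them replicate 2 was at or above the lowest Zheng58 value. The rule splits the 379 genes by replicate 2 itself, so a contrast between members and the others was set in advance and was not tested. Replicate 2 in the 281 genes was mostly near Zheng58, while in 97 of the 98 members it lay nearer to replicates 1 and 3. The exception was the member ranked 7 by Zheng58 mean, which held 179.3, 215.0 and 195.0 TPM in Zheng58, and 42.9, 89.0 and 27.4 TPM in apl replicates 1, 2 and 3, a relative position of 0.456. At the opposite extreme was a member at 14.6, 24.0 and 25.5 TPM in Zheng58, with 4.54, 0.23 and 6.62 TPM in apl, where replicate 2 was far the lowest.

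**Figure D4:**
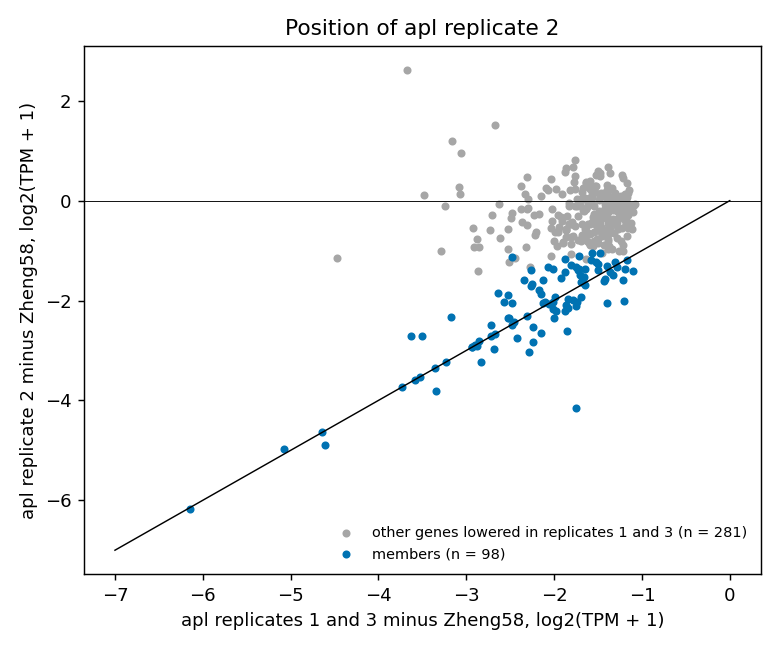
For the 379 genes that met the rule when apl replicate 2 was not used, the difference from the Zheng58 mean on log2(TPM + 1) is plotted for replicate 2 (vertical) against the mean of replicates 1 and 3 (horizontal). The diagonal marks equal differences; the 98 members (blue) scatter about it, and the other 281 genes (grey) lie above it, around or below the horizontal line at 0. Both axes use the same Zheng58 libraries, and the value of replicate 2 itself decides which of these genes are members.

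The spread between libraries was set beside that of all genes in range. The SD of log2(TPM + 1) over the 3 Zheng58 libraries had a median of 0.166 in the members and 0.110 in the 15088 genes, and over the 3 apl libraries 0.221 and 0.257. The apl SD exceeded the Zheng58 SD in 59 of the 98 members (60.2%) and in 82.2% of the genes in range. Among genes of at least 10 TPM in Zheng58 these shares were 71.2% of 59 members and 86.0% of 9319 genes. The 13 members listed at 0 in every apl library have an apl SD of 0, so members with a larger apl SD all fell among the other 85. Of these 13, 4 had a Zheng58 mean from 10 to below 50 TPM and so enter the second share. The zeros also lower the median apl SD of the members. The required gap further limits how far apl libraries can lie apart, so these shares were not tested.

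In a limma fit of log2(TPM + 1) over all 20411 genes averaging 1 TPM or more, with Benjamini-Hochberg adjustment and a threshold of 0.05, 89 of the 98 members were lower in apl. Of all genes tested 1.41% were called, 0.745% lower and 0.661% higher. The rule and the fit use the same contrast, so nothing is read from the 89. The members were 58.6% of the 152 genes called lower, and the other 63 did not meet the rule. The 9 members not called had a median log2 difference of -2.05, like that of the 89, but a median SD of log2(TPM + 1) of 0.436 in Zheng58 and 0.522 in apl, against 0.162 and 0.216. The fit weighs a difference against this spread, so the wider spread of the 9 follows from the call itself. The number called depended on the libraries: it was 32, 33 and 39 without Zheng58 replicate 1, 2 or 3. In those fits 0.176%, 0.176% and 0.214% of all genes tested were called lower. The number of members called was 57 without apl replicate 1 (0.33% of all genes lower) and 61 without apl replicate 3 (0.421%). It was 98 without apl replicate 2, where 34.8% of all genes tested were called in either direction, 14.6% lower and 20.2% higher.

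The rule has a threshold, and genes lay close on both of its sides. The 3 members nearest to it had ratios of 2.00, with Zheng58 means of 63.3, 196.4 and 7.48 TPM. The 3 genes nearest to it on the other side had ratios of 1.97, 1.94 and 1.93, with Zheng58 means of 426.9, 5.32 and 7.54 TPM. From 2 to below 2.1 there were 18 members, and from 1.9 to below 2 there were 12 genes. The gene left out by the upper limit on abundance met the ratio too, with 2679, 2358 and 2466 TPM in Zheng58 and 718.2, 700.0 and 1103 TPM in apl replicates 1, 2 and 3.

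The place of the members in identifier order was not used by the rule except for the block left out. Places are positions in the sorted table and not genome coordinates. The median distance from a member to the nearest other member was 99 places and the widest gap between neighbouring members was 3014 places. Another member lay within 10 places for 24 members, and 12 members formed 6 pairs at consecutive places. The 24 fell into 10 runs, of which 8 held 2 members, 1 held 3 and 1 held 5. How many runs other lists of this size would hold was not tested.

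Members at consecutive places could differ widely in level and in what they kept. In one pair, the member ranked 3 by abundance (458.8 TPM in Zheng58, 10.5% kept) stood next to a member at 8.62, 8.1 and 4.13 TPM in Zheng58 and 0 in every apl library. Another pair was closely matched in Zheng58, at 43.4 and 43.5 TPM, and kept 6.85% and 15.6%. One more pair had Zheng58 means of 7.48 and 8.40 TPM and kept 37.0% and 22.1%.

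The fullest run spanned 15 places and held 5 members among 10 other genes. Its members kept 7.13%, 18.2%, 23.1%, 34.3% and 0% of their Zheng58 means, in order of place. Of the other 10 genes 5 were tested, and 1 was called, higher in apl, by limma. That gene, directly after the second member of the run, held 6.57, 5.64 and 4.11 TPM in Zheng58 and 31.0, 32.5 and 34.1 TPM in apl. Lowered and raised genes thus stood side by side. A gene further on, between the second member and the next, was not called. It had 232.3, 284.8 and 235.8 TPM in Zheng58 and 146.5, 275.5 and 163.2 TPM in apl. Its apl replicates 1 and 3 were below every Zheng58 library, and replicate 2 lay within the Zheng58 range.

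**Figure D5:**
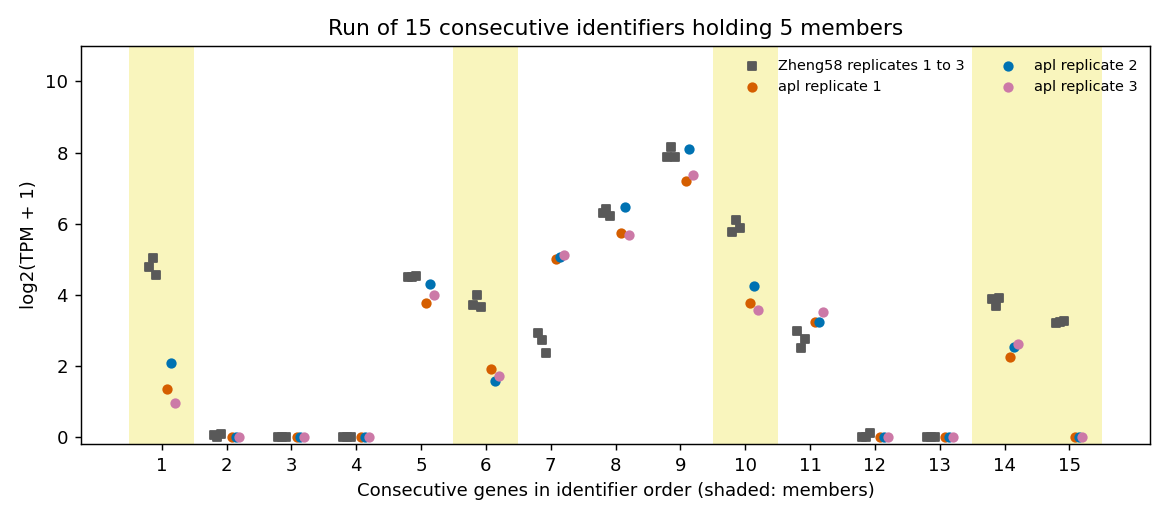
Levels as log2(TPM + 1) in every library for the 15 consecutive genes of the fullest run, in identifier order. Shaded columns are the 5 members; the genes at positions 7 and 11 are higher in all 3 apl libraries than in all 3 Zheng58 libraries, and 5 of the other genes are at or near 0 in all 6 libraries.

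Genes next to members that are not members themselves were counted in the same limma fit. Within 5 places of a member, 412 such genes were tested and 15 were called (3.64%, against 1.41% of all genes tested and 0.975% of all genes tested that are not members), 6 lower and 9 higher in apl. At 1 place, 8 of 82 were called (9.76%), 3 lower and 5 higher, and within 25 places 45 of 1832 (2.46%), 18 lower and 27 higher. These windows are nested, so the genes at 1 place enter each of them. In separate bins by nearest member, 3.66% were lower and 6.1% higher at 1 place. At more than 1 and up to 5 places 0.909% were lower and 1.21% higher. The next bins, ending at 10, 25 and 50 places, held 1.07%, 0.766% and 0.54% lower and 0.8%, 1.44% and 1.68% higher. From there to 100 places 0.192% were lower and 0.462% higher. Past 1 place, neither share fell at every step up to 50 places. More than 100 and up to 1000 places away, 0.229% of genes were lower and 0.487% higher. The median neighbour lay near no difference: its log2 difference within 5 places was 0.01, with quartiles of -0.30 and 0.29, against quartiles of -0.21 and 0.34 over all tested genes that are not members. The number called within 5 places was 7 or 8 when any 1 of the Zheng58 libraries, apl replicate 1 or apl replicate 3 was left out (1.69% to 1.93% of neighbours, against 0.41% to 0.773% of all genes in those fits), and rose to 157 without apl replicate 2 (37.8%, against 34.8% of all genes in that fit). In each of those first 5 fits 0 or 1 neighbours were called lower and 6 or 7 higher; whether they were among the 6 and 9 was not counted.

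In 4 members a gene raised by the mirrored rule stood at the next place. The member ranked 4 by separation, at 48.7 TPM in Zheng58 and 0.927 TPM in apl, had such a gene on both sides. The gene before it held 0.2, 0.28 and 0.43 TPM in Zheng58 and 11.4, 7.26 and 16.0 TPM in apl, and the gene after it held 0.45, 0.36 and 0 TPM in Zheng58 and 16.6, 9.77 and 22.1 TPM in apl. Another member, at 29.6, 21.8 and 21.6 TPM in Zheng58 and 6.34, 7.11 and 7.17 TPM in apl, was followed by a gene listed at 0 in all 3 Zheng58 libraries that held 9.9, 11.8 and 5.93 TPM in apl. In each of these pairs apl replicate 2 was on the same side as apl replicates 1 and 3 for both genes, as both rules require. A raised gene lay within 10 places of 12 members and within 25 places of 16. Counted by gene, 5 of the 183 other genes at 1 place from a member were raised by the mirrored rule. Within 5 places 9 of 872 were, and within 25 places 17 of 4008, beside 95 of all 44303 genes. Several of the 5 genes at 1 place lay in or beside the same run of members. The gene after the member ranked 4 and the one in the fullest run were also among the neighbours called higher. How many of the other raised genes were called was not counted. How near other lists of this size would lie to raised genes was not tested.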

How the data were processed

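The authors deposited 1 table of TPM values, with 1 column per library and 44303 genes. The submitters' processing notes name RSEM, HISAT2, DESeq2 and Trimmomatic 0.36 without role or order; genome build and annotation: not given in the sources used here. The listed genes sum to between 930426 and 959685 TPM per library. TPM keeps no depth, so no counting interval or detection limit is given, and reads split between near-identical gene copies could not be traced.

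From these values the members were found by the rule, with pandas 2.3.3. The 20411 genes averaging 1 TPM or more were fitted as log2(TPM + 1) with limma 3.58.1 in R 4.3.3, with genotype as the only term, a mean-variance trend, two-sided p-values and Benjamini-Hochberg adjustment. The fit and the rule were tested on simulated data in which the libraries of a group varied alike. No simulated library was set apart across genes as apl replicate 2 was, so its effect was not covered. All 98 members passed that filter. Only 2 identifiers are printed: the member of widest separation and, among the others, the member of highest Zheng58 mean. Other members were picked for the text by rank, as the nearest to the threshold, by place, or, after their values were seen, as extremes. Planned gene and marker lists needed names and were not used. No pair of libraries shared more than 1.14% of their TPM values among tested genes. The members and lists were chosen with earlier results of these data known.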

Additional observations from a re-analysis of the deposited data

How the results depend on the processing

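The number of genes lowered in all 3 apl libraries was 43 with a pseudocount of 5 TPM, 241 at a ratio of 1.5, 45 at a ratio of 3 and 59 with a Zheng58 mean of at least 10 TPM. It was 99 to 119 with a pseudocount of 0.1 TPM, no lower or upper limit on the mean, the left-out block kept, or either rescaling; 94 of the 98 met the rule after median-of-ratios rescaling and 90 after quantile normalization. Leaving out each library gave 110 to 379 genes, the highest without apl replicate 2. The members called lower by limma numbered 58 with a mean filter of 5 TPM, which tests 63 of them (1.48% of all genes called), 97 with array weights (27.4%), and 32 to 98 when each library was left out (0.41% to 34.8%). With a replicate block 11 members and 1 neighbour were called, the members lower and the neighbour higher. In that fit 0.122% of all genes tested were called in either direction and 0.0539% lower. Same-numbered libraries had correlations of -0.04, 0.05 and -0.02 between their deviations from the group means. With few libraries and apl replicate 2 set apart, these values cannot decide whether shared replicate numbers mark a batch. The labels do not say. The median log2 difference of the members was -2.78 with a pseudocount of 0.1 TPM, -1.25 with 5 TPM, and -2.06 to -1.97 when each library was left out. Members with another member nearby numbered 12 within 1 place. Called neighbours numbered 8 within 1 place, 45 within 25 places and 7 to 157 when each library was left out; 157 is 37.8% of neighbours against 34.8% of all genes, and the counts of 7 or 8 are 1.69% to 1.93% against 0.41% to 0.773%. Rescaling moved the median of all tested genes by less than 0.1 log2. Low TPM values carry an unknown counting error.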
